A study of Mus musculus with 10 samples.

Results

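Immunoglobulin segment genes are the germline pieces of antibody heavy and light chains, and the 123 described here were chosen by name and by their counts in the deposited table. Of the 55487 genes in that table, 395 carry the name of a heavy, kappa or lambda segment, and 123 of these had at least 10 read counts summed over the 10 ovaries. The 123 comprise 7 heavy constant genes, 44 heavy variable (V) genes, 1 heavy joining (J) gene, the kappa constant gene, 62 kappa V genes, 1 kappa J gene, 3 lambda constant genes, 3 lambda V genes and 1 lambda J gene. Since the summed count selected on them, their abundance is given as a description. Just inside the minimum lay 8 genes with 10 counts, the joining genes Ighj4 and Iglj2 among them, and just outside lay 6 genes with 9 counts, Ighj2 and Igkj2 among them. The other 272 named genes held 327 counts together, which was 0.44% of all counts on segment genes. No count fell on Ighe, the constant gene of IgE, nor on any of the 20 diversity (D) genes, and Iglc4 had 1 count.

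A B cell joins a V, a D and a J segment to make the variable part of its heavy chain, and a V and a J segment to make that of its kappa or lambda light chain. The constant gene behind the joined segments sets the class of the antibody: Ighm and Ighd give IgM and IgD, and class switching moves the same variable part to Ighg3, Ighg1, Ighg2b, Ighg2c, Ighe or Igha. Each B cell clone carries its own V genes, and a plasma cell devotes much of its messenger RNA to its antibody chains.

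Whole ovaries of mice with a C57BL/6J background were sequenced for total gene expression in 3 groups, with no transgene in any of them. The Control group held 4 ovaries of mice aged 8 weeks, the Aged group 3 ovaries and the Aged+CF group 3 ovaries of mice aged 11 months by the sample labels, or 10 months by the methods of the study. Aged+CF mice were given CEFFE, a cell-free extract of fat tissue holding 3 μg/μL of protein, over 2 weeks, with 1 tail vein injection of 200 μL per 2 days, and Control and Aged mice were given saline injections of equal volume. All mice were given 10 IU of PMSG, a gonadotropin that drives follicle growth, 48 h before the ovaries were taken. Total counts ran from 15761789 to 21318254 per ovary, and the group medians were 17396226 for Control, 17306694 for Aged and 17450630 for Aged+CF. Ovaries keep the numbers of their labels, and values are listed in the order Control 31, 32, 33 and 34, then Aged 31, 33 and 34, then Aged+CF 30, 32 and 34. Levels are in CPM, read counts scaled to the library size after TMM scaling, and FPKM also divides by gene length. Shares, leading V genes and sums go by read counts, which weigh longer genes more, and FPKM is given where it changes the leading class or V gene of an ovary.

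The ovary label was checked against its markers. Foxl2, the transcription factor of granulosa cells, lay between 248 and 443 CPM and Inha, the inhibin alpha subunit, between 1210 and 3500 CPM in the 10 ovaries. Aged 34 stood apart in the follicle markers: Amh, the hormone of small growing follicles, was at 3.25 CPM there against 90.2 and 131 CPM in Aged 31 and Aged 33, and Zp3, a coat protein of the oocyte, was at 0.937 CPM. Oviduct epithelium markers were highest in Control 33 and in Aged 34. Ovgp1, the oviduct glycoprotein, stood at 1.28, 1.93, 298 and 6.36 CPM in Control, at 2.15, 1.41 and 245 in Aged and at 31.2, 2.07 and 5.86 in Aged+CF ovaries. Foxj1, the regulator of ciliated cells, reached 36.7 CPM in Control 33 and 32.3 CPM in Aged 34.

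Immunoglobulin counts were spread very unevenly over the ovaries. Summed over the 123 genes, the level was 24.7, 42.8, 36.0 and 25.0 CPM in Control, 401, 25.5 and 3370 CPM in Aged, and 71.1, 83.3 and 34.4 CPM in Aged+CF. Aged 34 and Aged 31 thus lay far above all other ovaries, while Aged 33 lay at the level of the Control ovaries. Aged 34 held 61125 of the 73930 counts, or 82.7%, and Aged 31 held 9.1%, and the segment genes took 0.337% of all reads in Aged 34 and 0.0389% in Aged 31. Control ovaries had a mean of 32.1 ± 8.87 CPM (SD, n = 4), Aged ovaries one of 1270 ± 1830 CPM (SD, n = 3) and Aged+CF ovaries one of 62.9 ± 25.4 CPM (SD, n = 3). The Aged mean was 39.4 times the Control mean, and 6.64 times without Aged 34, when it was 213 CPM. In whole tissue, fewer cells of a type and less RNA per cell cannot be told apart, so these levels say nothing of how many B lineage cells an ovary held.

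The number of segment genes with at least 1 count moved with the level: 39, 45, 45 and 30 in Control ovaries, 88, 35 and 113 in Aged ovaries, and 71, 58 and 50 in Aged+CF ovaries. Of the 123 genes, 85 had their highest count in Aged 34, 22 in Aged 31, 10 in an Aged+CF ovary, 6 in a Control ovary and 0 in Aged 33. No count was seen for 41 genes in Control, for 26 in Aged+CF and for 3 in Aged ovaries, and 66 genes had over 50% of their counts in Aged 34. A gene could reach the minimum summed count through Aged 34 or Aged 31 alone, so these tallies are partly set by the rule that chose the genes. The median gene had 32 counts over the 10 ovaries, 26 genes had 100 or more and 8 had 1000 or more.

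Ighm, the mu constant gene of IgM, stood at 5.89, 8.6, 7.35 and 6.1 CPM in Control, at 115, 9.59 and 1620 CPM in Aged, and at 15, 17.6 and 12.6 CPM in Aged+CF. Aged 34 and Aged 31 were high, Aged 33 lay just above the highest Control ovary, and the 3 Aged+CF ovaries lay above all 4 Control ovaries and between Aged 33 and Aged 31. The Control mean was 6.99 ± 1.26 CPM (SD, n = 4), the Aged mean 582 ± 902 CPM (SD, n = 3) and the Aged+CF mean 15.0 ± 2.51 CPM (SD, n = 3). On the FPKM scale, Ighm reached 731 in Aged 34 and 50.2 in Aged 31 against 2.76 to 3.95 in Control ovaries. Ighd, the delta constant gene that naive B cells splice from the same transcript as Ighm, was low throughout, at 0.101 to 0.371 CPM in Control, at 1.07, 0.494 and 4.25 CPM in Aged and at 0.115 to 0.422 CPM in Aged+CF.

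The gamma genes of class-switched IgG differed in which ovary they led in. Ighg2c, which this mouse background carries in place of Ighg2a, stood at 0.175, 0.125, 0 and 0 CPM in Control, at 17.4, 1.13 and 48.4 CPM in Aged, and at 7.57, 17.1 and 2.16 CPM in Aged+CF. All 6 ovaries of old mice lay above all 4 Control ovaries, which had 3, 2, 0 and 0 counts, and the Aged and Aged+CF ovaries overlapped. Pooled counts gave a ratio of Aged to Control of 346 with a counting interval of 148 to 1070, and of Aged+CF to Control of 122 with an interval of 51.7 to 376. The ratios fell to 142 (60.4 to 442) without Aged 34 and to 65.9 (27.7 to 205) without Aged+CF 32. Ighg3 stood at 0.187 to 0.406 CPM in Control, at 33.6, 0 and 20.2 CPM in Aged, and at 0.172, 0.287 and 0.797 CPM in Aged+CF, so that it was high in Aged 31 and Aged 34 and had no count in Aged 33. Ighg2b was likewise higher in Aged 31 than in Aged 34, with 33.3, 0.564 and 15.3 CPM in Aged, 0.456 to 1.64 CPM in Control and 4.99, 2.41 and 2.39 CPM in Aged+CF. Ighg1 stood at 1.23, 2.87, 1.83 and 1.38 CPM in Control, at 6.92, 0.917 and 7.66 CPM in Aged, and at 0.917, 0.574 and 0.562 CPM in Aged+CF. For Ighg1 the 3 Aged+CF ovaries and Aged 33 lay below all 4 Control ovaries.

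Igha, the alpha constant gene of IgA, which mucosal plasma cells use, was highest in Aged 34 and not raised in Aged 31. Its level was 8.29, 14, 13.6 and 7.9 CPM in Control, 8.71, 2.4 and 35.5 CPM in Aged, and 11.1, 7.52 and 3.28 CPM in Aged+CF, so that all 3 groups overlapped. In Aged 31, where Ighm was at 115 CPM, Igha stayed within the range of the Control ovaries.

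**Figure D1:**
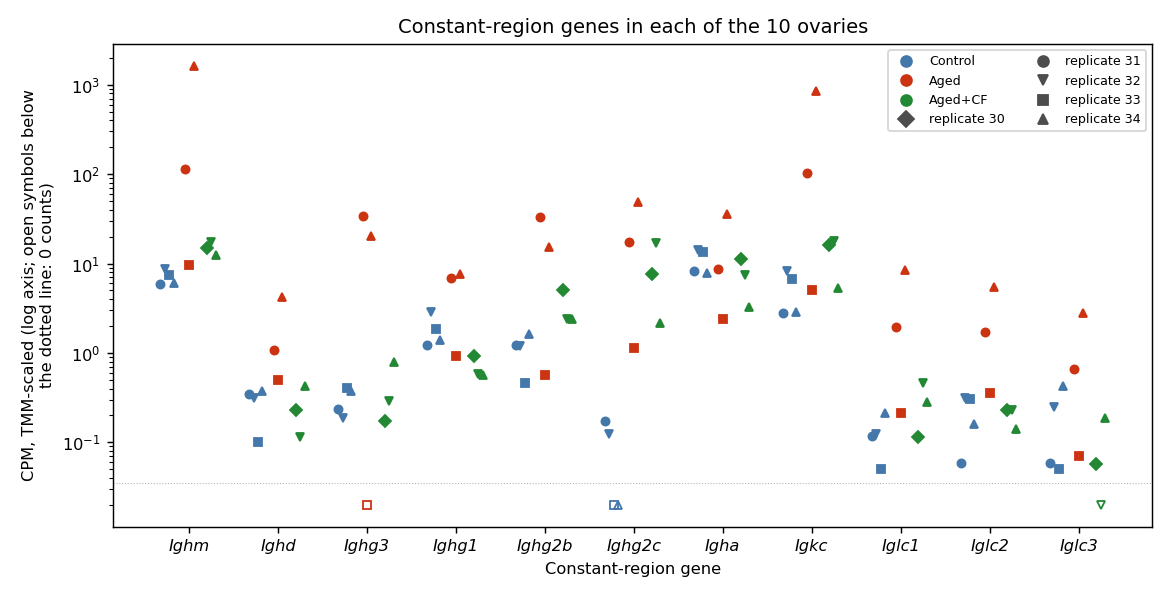
Levels of constant-region genes in each of the 10 ovaries, in CPM on a log axis, with points coloured by group, shaped by ovary number and drawn open below the dotted line where the count was 0. Ighm, Igkc and Igha are each highest in Aged 34, at 1620, 858 and 35.5 CPM.

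The mix of antibody classes differed between young and old ovaries. Shares were taken of the heavy constant counts in each ovary, with exact Clopper-Pearson 95% intervals that, like the floors used here for a count of 0, cover counting error only. Igha made up 47.7%, 51.4%, 57.3% and 44.5% in Control ovaries, 4.03%, 15.9% and 2.02% in Aged ovaries, and 27.7%, 16.5% and 14.8% in Aged+CF ovaries, so that no old ovary reached the lowest Control share. Ighm made up 31% to 34.3% in Control ovaries, 53.2%, 63.6% and 92.5% (interval 92.2% to 92.8%) in Aged ovaries, and 37.5%, 38.5% and 56.7% in Aged+CF ovaries. Taken of the summed FPKM instead, the Ighm share was 37.6% to 40.8% in Control ovaries, 56.8%, 65.8% and 92.6% in Aged ovaries, and 39.2%, 36.0% and 59.2% in Aged+CF ovaries, so that the 3 Aged ovaries and Aged+CF 34 lay above the Control ovaries on both scales, while Aged+CF 30 and Aged+CF 32 did so by counts and not in FPKM. The Igha share of FPKM was 39.1% to 51.3% in Control ovaries and 1.5% to 21.4% in the old ovaries, which again did not overlap. Ighg2c made up 1.01%, 0.457%, 0% and 0% in Control ovaries, 8.04%, 7.48% and 2.76% in Aged ovaries, and 19.0%, 37.5% (interval 34.2% to 41.0%) and 9.73% in Aged+CF ovaries. The 4 gamma genes together made up 11.3% to 19.1% in Control ovaries, 42.2%, 17.3% and 5.22% in Aged ovaries, and 34.2%, 44.7% and 26.6% in Aged+CF ovaries. Aged 34 was thus mostly IgM at the RNA level, Aged 31 held IgM beside several IgG classes, and in Aged+CF 32 Ighg2c came first in FPKM, with 47.4% against 36.0% for Ighm. In Control 34 the leading gene was Igha by counts and Ighm in FPKM, with 40.8% against 39.1% for Igha. The shares rest on 298 to 468 counts in the Control ovaries, 214 in Aged 33, 3619 in Aged 31, 31802 in Aged 34 and 473 to 794 in Aged+CF ovaries.

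**Figure D2:**
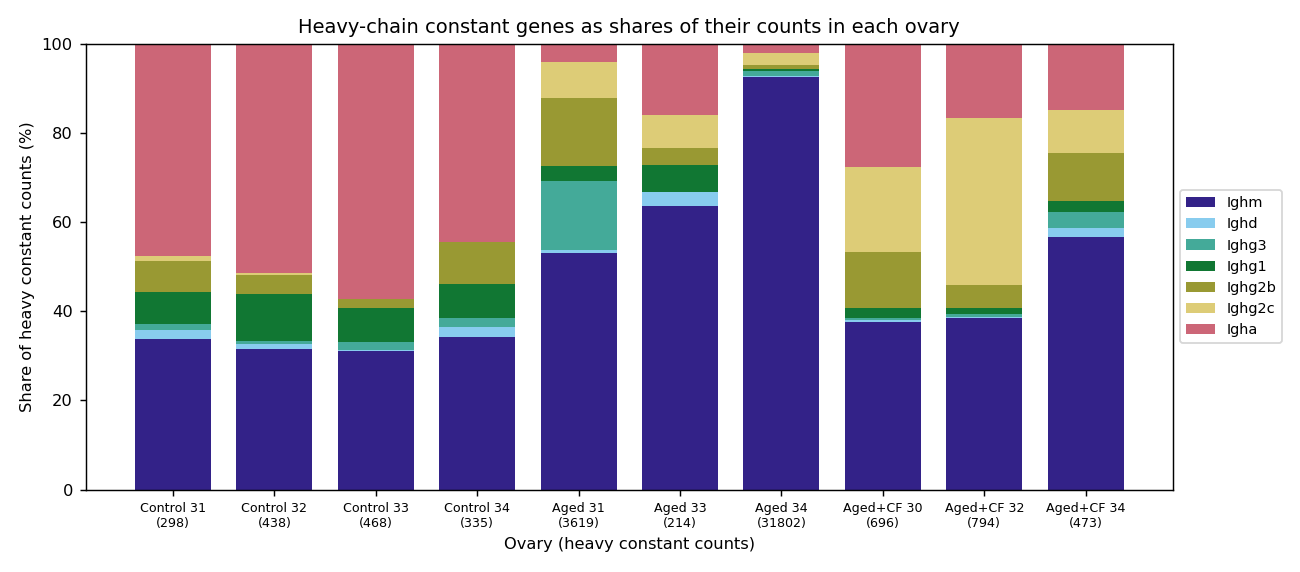
Share of each heavy constant gene among heavy constant counts, not divided by gene length, in percent, as a stacked bar for each of the 10 ovaries. Igha takes 44.5% to 57.3% in the Control ovaries and 2.02% to 27.7% in the old ones.

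Igkc, the constant gene of all kappa chains, stood at 2.8, 8.23, 6.69 and 2.86 CPM in Control, at 103, 5.08 and 858 CPM in Aged, and at 16.3, 17.7 and 5.3 CPM in Aged+CF. Aged 34 and Aged 31 were again high, and Aged 33 and Aged+CF 34 lay within the Control range. In FPKM, Igkc reached 1610 in Aged 34 and 187 in Aged 31, against 5.46 to 15.7 in Control ovaries. The lambda constant genes Iglc1, Iglc2 and Iglc3 together reached 16.8 CPM in Aged 34 and 4.35 CPM in Aged 31, and lay between 0.233 and 0.795 CPM in the other 8 ovaries. Kappa made up 92.3%, 92.3%, 94.3% and 78.3% of light constant counts in Control, 95.9%, 88.9% and 98.1% in Aged ovaries, and 97.6%, 96.2% and 89.7% in Aged+CF ovaries, so the groups overlapped. Iglv1, the most used lambda V gene of mice, stood at 0.0584, 0.0623, 0.0507 and 0.265 CPM in Control, at 2.21, 0.423 and 5.84 CPM in Aged, and at 0.172, 0.632 and 0.281 CPM in Aged+CF. All 3 Aged ovaries lay above the Control ovaries for Iglv1, and Aged 33 lay among the Aged+CF ovaries. Iglv2 and Iglv3 stayed at or under 0.496 and 0.937 CPM. Counts of some light chain genes are uncertain, since Igkc and the joining gene Igkj5 overlap Gm30211, Iglc1, Iglc3 and Iglv1 overlap 2010309G21Rik on the other strand, Iglc2 overlaps Iglj2, and the sources used here do not state how overlapping reads were counted or whether the libraries kept the strand.

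The 109 V genes held 5373 heavy, 10284 kappa and 218 lambda counts. Heavy V genes summed to 1.86 to 2.49 CPM in Control, to 27.4, 1.2 and 247 CPM in Aged, and to 5.27, 7.12 and 2.34 CPM in Aged+CF. Kappa V genes summed to 1.17 to 3.93 CPM in Control, to 48.4, 2.96 and 487 CPM in Aged, and to 8.54, 11.4 and 3.66 CPM in Aged+CF. V and constant counts moved together from ovary to ovary: kappa V counts varied 401-fold over the 10 ovaries, while their ratio to Igkc counts stayed between 0.407 and 0.69, and heavy V counts varied 263-fold at 0.0794 to 0.156 per heavy constant count. By counts, the 10 ovaries had 7 different leading heavy V genes and 8 different leading kappa V genes. In low ovaries many leads were narrow, as in Control 31, with 6 against 5 heavy counts and 7 against 6 kappa counts. Others were wider, as in Aged+CF 32, with 64 against 23 kappa counts. Few reads can by themselves change the leader, so the number of leaders is a description. By FPKM, which rests on the same reads, the leading gene was the same in 9 of 10 ovaries for the heavy chain and in 10 of 10 for kappa. In Control 32 the leading heavy V gene by FPKM was Ighv1-26 (0.723) in place of Ighv1-76 (0.671).

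Ighv1-26 made up 71.4% of heavy V counts in Aged 34 (3199 of 4478, interval 70.1% to 72.8%). Its level was 0, 0.249, 0.609 and 0.159 CPM in Control, 2.27, 0.212 and 176 CPM in Aged, and 0.0573, 0.115 and 0.469 CPM in Aged+CF, so that Aged 34 alone carried it at more than 2.27 CPM. In Aged 31 the leading heavy V gene was Ighv1-4, with 20.7% (17.0% to 24.6%) and 5.67 CPM, followed by Ighv1-11 with 17.6% and 4.83 CPM. Those genes were at 0.165 and 0.717 CPM in Aged 34, so the high ovaries did not share their leading heavy V gene. Ighv1-53 had no count in Control and stood at 0.179, 0.282 and 15.1 CPM in Aged and at 0.86, 1.15 and 0.234 CPM in Aged+CF, which made it the leading gene of Aged 33 at 23.5%, with 4 of 17 counts (6.81% to 49.9%), and of Aged+CF 30 at 16.3%, with 15 of 92. Against a floor of 3 counts per library, 0.168 CPM in Control, its Aged mean was at least 30.7-fold higher and its Aged+CF mean at least 4.44-fold higher than Control, but without Aged 34 the Aged mean was 0.231 CPM, 1.37 times the floor. Ighv13-2 had counts in Aged 34 alone, at 6.78 CPM, and Ighv3-6 and Ighv1-72 peaked there at 7.66 and 5.51 CPM. The remaining leading genes rested on 6 to 12 counts in Control, 41 in Aged+CF 32 and 12 in Aged+CF 34: Ighv1-22 with 15.4%, Ighv1-76 with 17.5%, Ighv1-26 with 31.6% and Ighv1-39 with 28.6% in Control ovaries, and Ighv1-76 with 33.1% and Ighv9-3 with 24.0% in Aged+CF 32 and Aged+CF 34.

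Igkv4-59 made up 66.4% of kappa V counts in Aged 34 (5859 of 8829, interval 65.4% to 67.3%) and 29.7% in Aged 31 (241 of 811, interval 26.6% to 33%). It had no count in any Control ovary, stood at 14.4, 0 and 323 CPM in Aged and at 0.229, 0.345 and 0 CPM in Aged+CF. Its Aged mean was at least 668-fold above the Control floor, or 42.7-fold without Aged 34, and in FPKM it reached 878 in Aged 34 and 37.8 in Aged 31. Here the high ovaries did share their leading gene, although they differed in the heavy chain. Igkv3-2 came next in Aged 34 with 12.2%, and stood at 3.4, 0.282 and 59.4 CPM in Aged, at 0.975, 0.747 and 0 CPM in Aged+CF and at 0 in Control ovaries, at least 125-fold and at least 3.41-fold over the Control floor, the former 10.9-fold without Aged 34. Igkv14-111 led in Aged+CF 32 with 32.3% (25.9% to 39.3%), at 0.0573, 3.68 and 0.281 CPM in Aged+CF, 2.21, 0 and 2.1 CPM in Aged and 1 count in Control. Igkv4-55 led in Aged+CF 30 and Aged+CF 34 with 12.1% and 16.7%, and Igkv6-20 led in Aged 33 with 14.3%. The Control ovaries were led by Igkv1-117, Igkv1-110, Igkv12-44 and Igkv15-103, with 21.9%, 17.5%, 15.0% and 40.9%. Further down, Igkv4-57-1 and Igkv3-5 reached 14.2 and 8.93 CPM in Aged 34, and Igkv8-16 and Igkv10-96 reached 4.71 and 4.47 CPM in Aged 31.

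**Figure D3:**
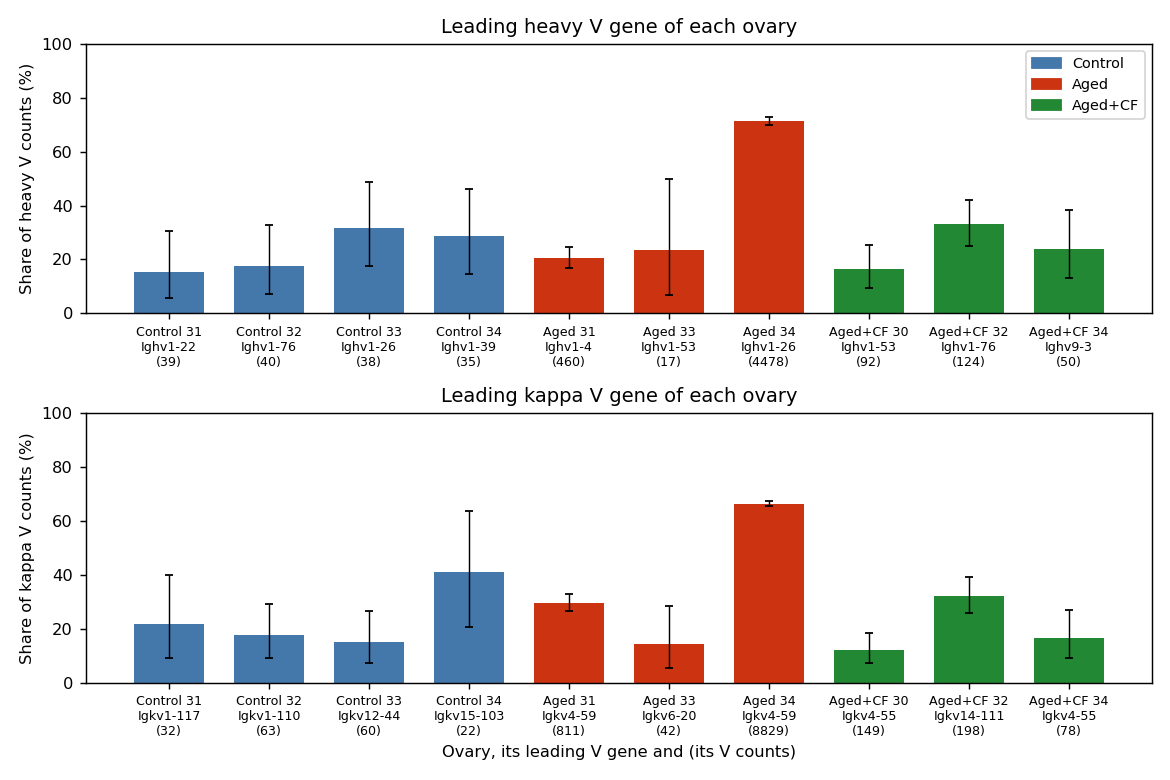
Share of the leading heavy V and kappa V gene among the V counts of its chain in each of the 10 ovaries, in percent, as bars coloured by group with exact 95% intervals as error bars, and with the gene and its ovary's V counts named under each bar. Aged 34 has the largest shares, 71.4% for Ighv1-26 and 66.4% for Igkv4-59.

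How evenly the V genes were used was summarised by the inverse Simpson index, the number of equally used genes that would give the same evenness. For heavy V genes it was 13.2, 14.4, 6.45 and 8.26 in Control ovaries, 9.67, 9.71 and 1.93 in Aged ovaries, and 13.5, 6.57 and 8.94 in Aged+CF ovaries. For kappa V genes it was 9.54, 11.4, 15.5 and 3.92 in Control ovaries, 8.33, 14.3 and 2.19 in Aged ovaries, and 19.9, 7.44 and 14.0 in Aged+CF ovaries. Aged 34 was the least even ovary for both chains despite its depth, with 40 of 44 heavy and 56 of 62 kappa V genes detected, and Aged 31 lay within the range of Control for both. An index from few counts is limited by them, and V counts were as low as 17 heavy counts in Aged 33 and 22 kappa counts in Control 34.

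The V genes with at least 10 counts can be set beside the other V genes of the genome. None of the 130 V pseudogenes was among them, against 44 of 113 functional heavy V genes and 62 of 100 functional kappa V genes. All functional heavy V genes, whether or not they reached the minimum, lie on the minus strand of chromosome 12, while 23 of 38 kappa V genes on the plus strand and 39 of 62 on the minus strand of chromosome 6 reached the minimum. Of the heavy V genes, 28 of the 56 farther from Ighm and 16 of the 57 nearer to it reached the minimum, and of the kappa V genes 28 of the 50 farther from Igkc and 34 of the 50 nearer to it did. The Ighv1 family, with 53 of the 113 functional heavy V genes, supplied 31 of the 44 with 4754 counts. The Igkv4 family, with 26 of the 100 functional kappa V genes, supplied 15 of the 62 with 6954 counts, and its share of kappa V counts was 74.2% in Aged 34, 36.5% in Aged 31, 14.3% in Aged 33, 14.7% in Control ovaries and 16.7% in Aged+CF ovaries. The 123 genes lie at chr12:113254830-116000461 (52 genes), chr6:67555497-70726966 (64 genes) and chr16:19061618-19260859 (7 genes) of GRCm38.

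Germline V genes of a family are alike in sequence, which bears on how far a count can be given to 1 gene, so the leading gene of each chain in Aged 34 is printed with 1 or 2 close relatives that also had at least 10 counts. Igkv4-59 (chr6:69438231-69438520, minus strand, GRCm38) was 97.6% identical to Igkv4-70 (chr6:69267897-69268186, minus strand), with 7 differences and an identical run of 94 bases. Igkv4-70 had 52 counts, against 6110 for Igkv4-59. Identical runs were longer with some less alike relatives: 121 bases with Igkv4-71, which had 12 counts, and 117 bases with Igkv4-68. Igkv4-68 had 203 counts, 191 of them in Aged 34. A 290-base window of the main V exon is given 5′ to 3′, and capitals mark the positions where Igkv4-59 and Igkv4-70 differ.
Igkv4-59: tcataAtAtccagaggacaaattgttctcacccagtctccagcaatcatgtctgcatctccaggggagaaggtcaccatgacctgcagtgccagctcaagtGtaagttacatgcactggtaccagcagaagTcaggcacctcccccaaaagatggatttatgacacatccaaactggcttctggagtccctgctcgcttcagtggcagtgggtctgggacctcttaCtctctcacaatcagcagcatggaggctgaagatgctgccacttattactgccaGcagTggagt
Igkv4-70: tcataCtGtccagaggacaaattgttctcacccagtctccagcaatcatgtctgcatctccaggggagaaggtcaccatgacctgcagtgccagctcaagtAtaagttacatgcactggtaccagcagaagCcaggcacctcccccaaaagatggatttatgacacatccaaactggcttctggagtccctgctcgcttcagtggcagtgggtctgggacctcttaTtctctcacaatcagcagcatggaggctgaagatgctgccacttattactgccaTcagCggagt

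Ighv1-26 (chr12:114788387-114788676, minus strand, GRCm38) was 97.2% identical to Ighv1-18 (chr12:114682647-114682936, minus strand), with 8 differences and an identical run of 94 bases, and 96.2% identical to Ighv1-22 (chr12:114746288-114746577, minus strand), with 11 differences and a run of 60 bases. Ighv1-18 had 72 counts, 42 of them in Aged 31, and Ighv1-22 had 26, against 3272 for Ighv1-26. The identical run was longer with Ighv1-34, at 104 bases, which had 22 counts, 21 of them in Aged 31. The same 290-base window is shown, with capitals where Ighv1-26 differs from Ighv1-18 or Ighv1-22, or where either of those differs from Ighv1-26. The counts are uncertain to the extent that reads from such stretches, or reads with somatic mutations, were placed on a relative, which was not tested.
Ighv1-26: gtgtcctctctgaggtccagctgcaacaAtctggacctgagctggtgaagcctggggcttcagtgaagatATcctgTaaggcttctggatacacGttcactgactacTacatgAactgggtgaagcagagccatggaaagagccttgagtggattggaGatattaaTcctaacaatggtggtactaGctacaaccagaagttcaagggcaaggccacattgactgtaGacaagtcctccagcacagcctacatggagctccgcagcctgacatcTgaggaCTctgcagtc
Ighv1-18: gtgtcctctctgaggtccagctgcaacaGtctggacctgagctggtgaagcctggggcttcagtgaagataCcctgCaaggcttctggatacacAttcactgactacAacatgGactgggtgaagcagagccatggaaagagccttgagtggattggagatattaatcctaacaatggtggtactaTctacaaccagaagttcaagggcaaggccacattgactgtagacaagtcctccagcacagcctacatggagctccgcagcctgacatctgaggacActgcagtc
Ighv1-22: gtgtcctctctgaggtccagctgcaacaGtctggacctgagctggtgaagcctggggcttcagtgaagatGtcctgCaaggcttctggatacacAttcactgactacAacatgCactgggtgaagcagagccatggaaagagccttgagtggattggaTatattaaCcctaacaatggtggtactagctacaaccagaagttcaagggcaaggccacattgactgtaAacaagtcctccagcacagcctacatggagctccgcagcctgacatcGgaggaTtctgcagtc

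Joining genes, short segments that recombination of the DNA places behind the V segment, had few counts as separate genes. Ighj4, Igkj5 and Iglj2 together had 0, 2, 2 and 2 counts in Control, 5, 2 and 11 in Aged ovaries, and 3, 3 and 1 in Aged+CF ovaries. Divided by their short length, these counts summed to 0 to 2.46 FPKM in Control, to 5.1, 2.75 and 11.6 FPKM in Aged, and to 0.869 to 2.94 FPKM in Aged+CF.

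The first comparison asks whether ovarian ageing goes with another level of each immunoglobulin gene. In Aged against Control ovaries, the IgM gene Ighm, the IgG genes Ighg2c, Ighg3 and Ighg2b, the kappa gene Igkc and 4 V genes were higher, while Ighg1 and Igha were not called. Only 16 of the 123 genes passed the filter on low counts and were tested, and the other 107 were too low or were high in too few ovaries, Igkv4-59 included. A gene that passed only through the ovaries where it was high had to differ, so counts and medians over the 16 lend no weight to the direction. By edgeR, with a gene called when it changed 1.5-fold or more with an adjusted p under 0.05, 9 of the 16 were called higher in Aged, against 5.0% of the 18956 genes tested, and 0 lower. At an unadjusted p under 0.05, 15 were higher, against 8.79% of all genes, and DESeq2 called 26 of 112 with a test, against 6.72% of all genes with an adjusted p called higher. The median log2 fold change of the 16 was 5.28, or 4.82 with genes absent from Control set at their floor, and 0 over all genes, and without Aged 34 it was 3.28 over the 17 genes then tested. Of the 16, 6 had Aged ovaries that did not overlap the Control ovaries: Ighm, Ighg2c, Iglv1, Ighv1-53, Igkv3-2 and Igkv4-55. All 6 lay above Control, and of all 18956 tested genes 11.8% did so without overlap. Of the 107 genes below the filter, 11 lay above and 1 below without overlap, against 11.8% and 15.6% of all tested genes. Ighd and Iglc2 were among those above.

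Ighg2c had a log2 fold change of 8.18 (SE 1.44, edgeR adjusted p = 0.00916), with 3 of 3 Aged ovaries above Control, and it was called under 16 of 16 alternatives, with log2 fold changes of 6.95 to 9.5 and adjusted p from 8.59e-07 to 0.0445. Ighm had a log2 fold change of 6.38 (SE 1.29, edgeR adjusted p = 0.0134, 3 of 3 Aged ovaries above Control) and was called in 15 of 16, from 3.19 to 6.97, but not with the ovary number as a block (4.96). For Igkc the log2 fold change was 5.97 (SE 1.3, edgeR adjusted p = 0.0168), with 2 of 3 Aged ovaries above Control, and it was called in 14 of 16, though not with the block (5.39) or without Control 34 (5.77). Iglv1 followed with 4.6 (SE 0.9, edgeR adjusted p = 0.0121, 3 of 3 Aged ovaries above Control), called in 14 of 15, but not with the block (4.73). The edgeR log2 fold changes of Ighg3 and Ighg2b were 5.85 (adjusted p = 0.017) and 3.86 (adjusted p = 0.024), each with 2 of 3 Aged ovaries above Control. The call of Ighg3 was lost with the block (4.66) and without Control 32 (5.7) or Control 34 (5.97), and that of Ighg2b with the block (3.2), with only the 2 groups compared (3.86), and without Control 31 (3.9), Control 32 (3.88), Control 33 (3.59), Control 34 (4.11) or Aged 31 (2.84). Igkv3-2, Ighv1-26 and Ighv1-53 were called at log2 fold changes of 11.55, 7.79 and 9.53 with edgeR adjusted p of 0.0371, 0.0237 and 0.0485, with 3, 2 and 3 of 3 Aged ovaries above the highest Control ovary, and under 7 of 15, 8 of 14 and 3 of 14 alternatives. Fitted values of Igkv3-2 and Ighv1-53, which had no count in Control, depend on the prior count and are no bound. Without Aged 34, Ighv1-26 (2.28) and Ighv1-53 (5.07) were not called, and Ighv1-26 was not called with the block (5.87), with only the 2 groups compared (7.79), or without Control 31 (7.4), Control 32 (7.77) or Control 34 (7.61). Igkv3-2 and Ighv1-53 were not called when any 1 Control or Aged+CF ovary was left out, at 11.52 to 11.56 and 9.5 to 9.54, nor with the block, at 15.62 and 11.17, and Ighv1-53 was not called with no filter (9.52) or by the newer edgeR method, chosen after seeing the data (9.57). Igha had a log2 fold change of 0.51 (SE 0.71, edgeR adjusted p = 0.673), which was -0.93 without Aged 34, and Ighg1 had one of 1.51 (edgeR adjusted p = 0.107), with 2 of 3 Aged ovaries above Control and a call without Aged 33 (2.03).

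The count of called genes moved with single libraries. Without Aged 34, 7 of 17 tested genes were called in Aged against Control, against 8.55% of all genes called higher, and the 7 included Ighg2c at a log2 fold change of 6.95, Ighm at 3.19 and Igkc at 3.43. Without Aged 33, the Aged ovary at the level of Control, 38 genes could be tested and 30 were called, against 4.14% of all genes, and without Aged 31 it was 8 of 20, against 4.44%. The count was 5 without Control 31, 4 without Control 32, 5 without Control 33 and 3 without Control 34, against 3.8%, 2.36%, 3.46% and 2.31% of all genes. Without Aged+CF 30, 32 or 34 it was 15, 18 and 16 of 37, 35 and 38 tested, against 4.35%, 4.35% and 4.47% of all genes. Leaving out an Aged or Aged+CF ovary lets a gene pass the filter through fewer ovaries, such as Aged 31 and Aged 34 alone. Without Aged 33, 9 of the 30 called genes were also called with all ovaries kept. Counts over genes added in this way lend no weight to the direction.

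The next comparison asks whether CEFFE treatment of aged mice goes with another level. Immunoglobulin levels in the 3 Aged+CF ovaries lay below Aged 31 and Aged 34 and above Aged 33 for the summed genes, so the groups overlapped. None of the 16 tested genes separated Aged+CF from Aged ovaries, against 18.6% of all tested genes. Of the 107 genes below the filter, 10 lay lower in all Aged+CF ovaries and 1 higher, against 8.39% and 10.2% of all tested genes. Ighd (0.115 to 0.422 against 0.494 to 4.25 CPM) and Iglc2 (0.141 to 0.23 against 0.353 to 5.4 CPM) were among the lower. The lowest edgeR p values were those of Ighg1 and Ighg3: Ighg1 was at 0.562 to 0.917 CPM in Aged+CF against 6.92, 0.917 and 7.66 CPM in Aged, and Ighg3 at 0.172 to 0.797 CPM against 33.6, 0 and 20.2 CPM. By edgeR, 0 of the 16 tested genes were called, against 0.00528% of all genes called lower, while 8 were lower at an unadjusted p under 0.05, against 4.05% of all genes, and DESeq2 called 8 lower, against 1.35% of all genes with an adjusted p. The 8 by DESeq2 were Ighm, Ighg1, Ighg3, Ighd, Igkc, Iglc1, Iglc2 and Iglv1. The edgeR log2 fold changes were -2.91 for Ighg1 (SE 0.69, adjusted p = 0.161, range over alternatives 0.00234 to 0.728), -5.28 for Ighm (SE 1.39, adjusted p = 0.169, range 0.00326 to 0.735) and -4.63 for Igkc (SE 1.37, adjusted p = 0.184, range 0.0167 to 0.735), where 2 of 3 Aged ovaries lay above all Aged+CF ovaries for Ighg1, Ighm and Igkc. Ighg2c, high in both old groups, had an edgeR log2 fold change of -1.32 (SE 1.01, adjusted p = 0.536), which was -0.07 without Aged 34. The median over the 16 was -2.82, against -0.02 over all genes, and it was -1.31 over the 17 genes tested without Aged 34. Genes that passed the filter mainly through Aged 31 and Aged 34 were bound to be lower in Aged+CF. The counts and medians over the tested genes therefore lend no weight to the direction here either. Without Aged 33, 2 of 38 tested genes were called, against 0.0204% of all genes called lower. These were Ighg3 at -5.94 (edgeR adjusted p = 0.0068, range over alternatives 0.0068 to 0.739) and Ighg1 at -3.41 (edgeR adjusted p = 0.0432). Without Aged 34 the log2 fold change of Ighm was -2.07 and that of Igkc -2.06. The Aged ovaries serve both this comparison and that with Control, so a high or low Aged ovary moves both.

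The last comparison asks whether treated aged ovaries differ from young ones, and it shares its Control ovaries with the first. Ighg2c stood out again, with Aged+CF ovaries at 7.57, 17.1 and 2.16 CPM and Control at 0 to 0.175 CPM. By edgeR, 0 of the 16 tested genes were called, against 0.137% of all genes called higher, while 3 were higher at an unadjusted p under 0.05, against 3.33% of all genes, and DESeq2 called 3, against 1.52% of all genes with an adjusted p: Ighg2c, Igkv14-111 and Igkv4-59. The call of Igkv4-59 rested on 4, 6 and 0 counts in Aged+CF against 0 in Control, and its Aged+CF mean was 1.14 times the Control floor. The edgeR log2 fold change of Ighg2c was 6.85 (SE 1.45, adjusted p = 0.103, range over alternatives 0.000343 to 0.375), with 3 of 3 Aged+CF ovaries above Control. It was called with only the 2 groups compared, at 6.88, without Aged 33, at 6.88, and without Aged 34, at 6.88 (edgeR adjusted p = 0.0336), where Ighv1-53 was called as well, at 6.72. Ighm had an edgeR log2 fold change of 1.1 (SE 1.14, adjusted p = 0.701), although 3 of 3 Aged+CF ovaries lay above all Control ovaries, and Igkc one of 1.34 (SE 1.18, adjusted p = 0.641), with 2 of 3 above. Ighm was called with only the 2 groups compared, at 1.13 (edgeR adjusted p = 0.0232), and its estimate was -0.26 with the ovary number as a block. Igha had an edgeR log2 fold change of -0.59 (adjusted p = 0.754), and Ighg1, with 3 of 3 Aged+CF ovaries below Control, one of -1.41 (adjusted p = 0.365). In all, 6 tested genes had groups that did not overlap, Ighg1 below Control and 5 above it, against 12.2% of all tested genes below and 9.69% above, and the median over the 16 was 1.58 against -0.03 over all genes, or 0.71 over the 35 genes tested without Aged+CF 32.

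Genes of the B cell surface and of plasma cells were taken from lists of markers, and the counts of called genes in each list stand against 5.0% of all tested genes called higher and 6.06% called lower in Aged. Jchain, which links IgM and IgA into polymers, stood at 1.28, 2.06, 2.64 and 1.33 CPM in Control, at 15.5, 1.62 and 152 CPM in Aged, and at 3.61, 4.71 and 1.17 CPM in Aged+CF. It was thus high in the same Aged ovaries as Ighm and Igkc, with an edgeR log2 fold change of 4.95 in Aged against Control (adjusted p = 0.0218, 2 of 3 Aged ovaries above Control). That call was lost with the ovary number as a block (4.19), without Aged 34 (2.27) and without Control 31 (4.81), Control 32 (5.0) or Control 34 (4.82). Mzb1, a chaperone of antibody secretion, stood at 0.152 to 0.424 CPM in Control, at 1.79, 1.69 and 8.49 CPM in Aged and at 0.573 to 0.862 CPM in Aged+CF, a log2 fold change of 3.89 in Aged by edgeR (adjusted p = 0.00741, 3 of 3 Aged ovaries above Control). It was 2.72 without Aged 34, and the call was lost with the block (3.76). Of the 18 plasma cell genes, 16 were tested and 3 were higher and 1 lower in Aged, with a median log2 fold change of 0.32 and summed levels of 626, 708, 665 and 700 CPM in Control, 907, 1230 and 850 in Aged ovaries, and 635, 1080 and 916 in Aged+CF ovaries. The largest number of reads in the sum came from Sdc1, which epithelia and the ovary itself express, at 401, 609 and 155 CPM in Aged, and the lower gene was Derl3, at 23.1 to 41.3 CPM in Control and 6.8, 11.6 and 4.36 CPM in Aged. Pou2af1, the octamer coactivator of B lineage cells, fell below the filter, with 15.2 CPM in Aged 34, 1.61 CPM in Aged 31 and at most 0.423 CPM elsewhere.

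B cell surface markers were highest in Aged 34, and several were also above Control in Aged 31. Cd79a, part of the B cell receptor, stood at 0.35, 0.561, 0.507 and 0.371 CPM in Control, at 1.31, 1.13 and 7.55 CPM in Aged, and at 1.09, 0.402 and 0.75 CPM in Aged+CF. Its edgeR log2 fold change in Aged was 2.89 (adjusted p = 0.0212, 3 of 3 Aged ovaries above Control), a call lost with the block (2.46) and without Control 31 (2.79), Control 32 (3.01) or Control 34 (2.81), and the estimate was 1.48 without Aged 34. Ms4a1, the CD20 antigen, stood at 0.686 to 1.05 CPM in Control, at 0.775, 1.06 and 4.91 CPM in Aged, and at 0.287 to 0.516 CPM in Aged+CF. In Aged 31, where Ighm was at 115 CPM, Ms4a1 was within the Control range. Cd79b, the partner of Cd79a in the receptor, stood at 0.525 to 1.31 CPM in Control, at 3.58, 2.05 and 7.22 CPM in Aged, and at 0.804 to 1.5 CPM in Aged+CF, and Cd22, an inhibitory receptor of B cells, at 3.99 to 5.14 CPM in Control, at 8.71, 7.62 and 18.8 CPM in Aged, and at 5.8 to 8.77 CPM in Aged+CF. Both lay above Control in all 3 Aged ovaries, as did Blk, a kinase of the B cell receptor, and Ly6d, at 0.954 and 1.01 CPM in Aged 31 against at most 0.436 and 0.318 CPM in Control. Of 18 B cell genes, 13 were tested and 7 were higher and 0 lower in Aged, with a median log2 fold change of 1.39, and their summed level, to which Ebf1 gave the largest number of reads, was 24.3 to 30.2 CPM in Control, 50.3, 39.9 and 119 CPM in Aged, and 39.8, 35.8 and 35.0 CPM in Aged+CF. No listed gene was at 0 in all ovaries.

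**Figure D4:**
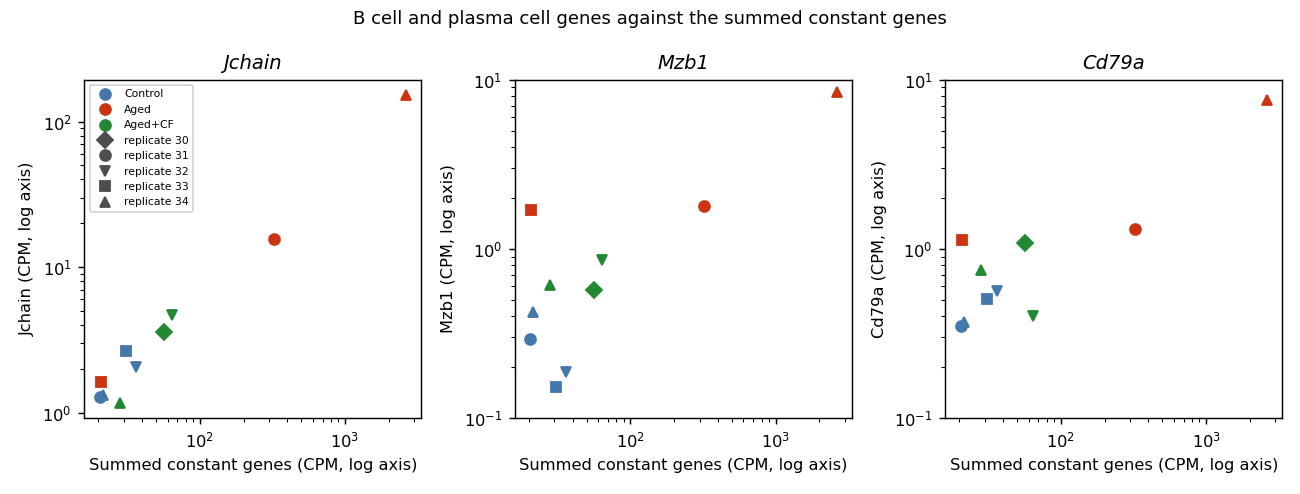
Levels of Jchain, Mzb1 and Cd79a against the summed constant genes, all in CPM on log axes, with 1 point for each of the 10 ovaries coloured by group and shaped by ovary number. Jchain reaches 152 CPM in Aged 34 and 15.5 CPM in Aged 31, while Mzb1 is at 1.79 and 1.69 CPM in Aged 31 and Aged 33.

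Receptors that bind or carry antibodies were higher in Aged for 6 of 10 tested genes of 14 listed, against 5.0% of all tested genes, with 0 lower and a median log2 fold change of 1.08. Fcgr2b, the inhibitory receptor for IgG, stood at 30.6 to 37.7 CPM in Control, at 59.5, 62.2 and 101 CPM in Aged, and at 58.4, 64.0 and 68.0 CPM in Aged+CF, with an edgeR log2 fold change of 1.17 in Aged (adjusted p = 0.00559, 3 of 3 Aged ovaries above Control). Fcgr4 stood at 3.56 to 4.61 CPM in Control, at 16.5, 10.1 and 15.8 CPM in Aged, and at 5.45, 3.45 and 9.33 CPM in Aged+CF. Both receptors lay above the Control range in Aged 33 as well, where the summed segment genes did not. Pigr, which carries IgA across epithelia, was at most at 0.221 CPM, and Fcrl5 had counts in Aged 31 and Aged 34 alone, at 1.67 and 1.27 CPM. The summed level of the list, to which Fcgrt gave the largest number of reads, was 181 to 265 CPM in Control, 305, 263 and 425 CPM in Aged, and 234 to 277 CPM in Aged+CF. Genes of V(D)J recombination, class switching and germinal centres had 1 of 10 tested higher and 2 lower in Aged, of 16 listed, with a median of -0.23 and sums, to which Pou2f1 gave the largest number of reads, of 162 to 197 CPM in Control, 134 to 181 CPM in Aged and 173 to 179 CPM in Aged+CF. Rag1 stayed at or under 0.609 CPM, and Rag2 and Dntt at or under 0.0705 and 0.175 CPM.

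Signals for plasma cell survival and B cell attraction had 2 of 11 tested genes higher in Aged, of 14 listed, with a median of 0.9 and sums, to which Tgfb1 gave the largest number of reads, of 170 to 251 CPM in Control, 190 to 244 CPM in Aged and 226 to 231 CPM in Aged+CF. Cxcl13, which draws B cells, was below the filter at 1.37, 0 and 5.35 CPM in Aged and at most 0.422 CPM elsewhere, high in the ovaries that were high in Ighm. Ccl28, which draws IgA plasma cells, stood at 0.7, 0.561, 3.8 and 0.795 CPM in Control and at 9.9, 7.76 and 3.42 CPM in Aged. Other cell types were measured in the same way. The T cell list had 7 of 14 tested genes higher and 1 lower in Aged, of 16 listed, with a median of 1.57, and its sum, to which Tcf7 gave the largest number of reads, was 75.5 to 100 CPM in Control, 84.6, 76.7 and 144 CPM in Aged, and 84.7 to 101 CPM in Aged+CF. The macrophage list had 3 of 12 higher with a median of 0.49, and its sum, to which Lyz2 gave the largest number of reads, was 623 to 731 CPM in Control, 1040, 1110 and 2260 CPM in Aged, and 937 to 1080 CPM in Aged+CF. Blood genes were higher for 5 of 5 tested of 7 listed with a median of 2.29, and their sum, to which Hba-a1 gave the largest number of reads, was 71.8 to 112 CPM in Control, 418, 638 and 265 CPM in Aged, and 109 to 260 CPM in Aged+CF. The blood sum was highest in Aged 33, the Aged ovary with the lowest immunoglobulin level, and lowest of the Aged group in Aged 34. The oviduct list had 0 of 11 tested genes higher or lower by edgeR, of 14 listed, and 0 at an unadjusted p under 0.05, with a median of 0.05 and sums of 115, 163, 572 and 152 CPM in Control, 121, 84.4 and 501 CPM in Aged, and 130 to 184 CPM in Aged+CF. The oviduct sum was higher in Control 33, where the segment genes summed to 36.0 CPM, than in Aged 34. The ovary list had 3 of 18 higher and 5 lower with a median of -1.02, and its sum, to which Cyp11a1 gave the largest number of reads, was 10100 to 13100 CPM in Control, 20900, 27600 and 13800 CPM in Aged, and 11500 to 14300 CPM in Aged+CF. For none of these lists was its part in the immunoglobulin levels tested. In Aged+CF against Aged and against Control, edgeR called 0 genes of any list, while at an unadjusted p under 0.05 the numbers lower in Aged+CF than in Aged were 7 of 13 tested for B cells, 5 of 16 for plasma cells, 8 of 14 for T cells, 4 of 5 for blood and 3 of 10 for antibody receptors, against 4.05% of all tested genes. In the other lists they were 2 of 12 for macrophages, 2 of 11 for survival and attraction signals and 2 of 18 for ovary. Lower as well were 1 of 10 recombination genes and 1 of 11 oviduct genes, while 1 plasma cell gene and 1 ovary gene were higher.

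Outside the segment genes, the level most like that of the summed constant genes over the 10 ovaries was that of Jchain, with a Pearson correlation of log2 CPM of 0.991 and a Spearman correlation of 0.903. Leaving out Aged 31 and Aged 34, Jchain kept a Pearson correlation of 0.906 over 8 ovaries. Tmem140, Napsa, Ap3m1 and Lilrb4a came next with 0.96, 0.95, 0.946 and 0.944, and with 0.626, 0.586, 0.639 and 0.656 without those ovaries, so their likeness rests more on them. These are descriptions over ovaries in which every gene shares its library with the segment genes.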

How the data were processed

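RNA sequencing of 10 whole ovaries gave a count and an FPKM per gene and ovary, which the authors deposited as count and FPKM columns, and the submitters' processing notes name TopHat and Cufflinks 2.1.1 on GRCm38.p4. Positions and gene types come from GENCODE M21. The counts were fitted whole in R 4.3 with edgeR 4.0 (TMM scaling, low-count filter, quasi-likelihood F test over 3 groups, Benjamini-Hochberg over 18956 genes), and with DESeq2 1.42 as an alternative. The code was tested on simulated data. The other alternatives were DESeq2 size factors, no filter, only the 2 groups compared, the ovary number as a block, an unadjusted p, each ovary left out and, chosen after seeing the data, edgeR's newer quasi-likelihood method. Named genes were all constant and lambda V genes, the 5 most abundant heavy and kappa V genes, the leading V gene of each ovary, called genes, the 4 most abundant called genes of each list with its defining markers, and the 5 genes most like the constant genes; other genes named were chosen after their values were seen. The genes and lists were chosen with earlier results of these data known. Some listed genes and a sequence are not reported here. The reference promoter table held 0 of the 123 genes, so the octamer motif was not searched. Totals of 15761789 to 21318254 counts make 3 counts, the floor used for a 0, about 0.168 CPM in Control.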

Additional observations from a re-analysis of the deposited data

Results flagged for a closer look

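Among 89 values checked in the 4 Control ovaries, these had 1 ovary far from the other 3, which chance alone gives for about 1 in 20 groups of values. That rate does not apply to 3 genes with counts in 1 Control ovary alone, since any count beside 0 in the other 3 is flagged: Igkv12-46 with 4 counts (0.203 CPM) and Igkv14-111 with 1 (0.0507 CPM) in Control 33, and Igkv4-55 with 1 (0.0584 CPM) in Control 31. Iglv1 was at 0.265 CPM in Control 34 against 0.0507 to 0.0623 CPM, and the lambda V genes together at 0.424 CPM against 0.0623 to 0.117 CPM. Kappa made up 78.3% of light constant counts in Control 34 against 92.3% to 94.3%.

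In Control 31 the list of V(D)J recombination, class switching and germinal centre genes summed to 197 CPM against 162 to 167 CPM, and that of plasma cell survival and B cell attraction to 251 CPM against 170 to 180 CPM. In Control 33 the oviduct list summed to 572 CPM against 115 to 163 CPM, with Ovgp1 at 298 CPM against 1.28 to 6.36 CPM and Foxj1 at 36.7 CPM against 0.436 to 1.91 CPM. Gpnmb was at 88.1 CPM there against 60.8 to 62.9 CPM, and Ccl28 at 3.8 CPM against 0.561 to 0.795 CPM. Fcgr4 was at 4.61 CPM in Control 32 against 3.56 to 3.7 CPM, Ung at 37.9 CPM in Control 32 against 22.9 to 25.2 CPM, and Fcer1g at 17.2 CPM in Control 34 against 14.8 to 15.1 CPM.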

How the results depend on the processing

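The count of immunoglobulin genes called in Aged against Control, 9 of 16 tested, was 15 at an unadjusted p, 21 of 123 with no filter, 26 of 112 by the DESeq2 Wald test, 3 of 7 with only the 2 groups compared, and 1 with the ovary number as a block. The shares of all genes called higher in those fits were 8.79%, 2.09%, 6.72%, 3.22% and 0.295%. Leaving out 1 ovary gave 3 to 30. The filter tests more or fewer genes when libraries are removed, and otherwise the cause was not tested. In Aged+CF against Aged, the count of 0 became 8 at an unadjusted p and 8 by the DESeq2 Wald test, stayed 0 with the block, and ran from 0 to 2 with an ovary left out. The shares of all genes called lower were 4.05% at an unadjusted p, 1.35% by DESeq2 and 0.0204% without Aged 33, where the count was 2. In Aged+CF against Control, the count of 0 became 3 at an unadjusted p, 3 by the DESeq2 Wald test and 2 of 6 with only the 2 groups compared, stayed 0 with the block, and ran from 0 to 2 with an ovary left out. The shares of all genes called higher were 3.33% at an unadjusted p, 1.52% by DESeq2 and 1.26% with only the 2 groups compared. Without Aged 34 and without Aged 33, where 2 and 1 genes were called, the shares were 0.931% and 0.25%. The labels do not say that ovary numbers pair the samples. Residual correlations of same-numbered ovaries ran from -0.18 to 0.15. Those of different-numbered ovaries were not set beside them, so a shared batch cannot be told from this. The fit with the block also estimates more coefficients from the same ovaries. The newer edgeR method, chosen after seeing the data, called 11, 0 and 0 of 16 tested genes. It called 5.26% of all genes higher in Aged against Control. Summed levels ranged from 28.6 to 34.6 CPM in Control, 213 to 1890 CPM in Aged and 52.8 to 77.2 CPM in Aged+CF with an ovary left out, the Aged mean falling from 1270 to 213 CPM without Aged 34. With DESeq2 size factors, unscaled totals or all segment genes they were 31.8 to 33.2, 1260 to 1270 and 63.4 to 64.7 CPM. Of 2506 combinations of a named gene's comparison and an alternative, 2306 kept their status as called or not, 134 lost the call and 66 gained it. The sign of the estimate changed in 40, as for Igha in Aged against Control without Aged 34 (0.51 to -0.93), and in 0 of those with an unadjusted p under 0.05 and a 1.5-fold change. Depth limits most segment genes, whose median total was 32 counts.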
